A study of Homo sapiens with 12 samples.

Results

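The genes described are 10 members of the activator protein 1 (AP-1) and immediate early response, namely JUN, JUNB and JUND, FOS, FOSL1 and FOSL2, ATF3, EGR1, and IER2 and IER3. They were taken by gene name from the deposited Huh7 table, where each name had 1 row, so they were 10 of 60666 listed genes. RNA sequencing covered Huh7, an established line from a human liver cell carcinoma, with 3 control libraries and 3 libraries in which FAM111B was silenced by a lentiviral short hairpin RNA (shFAM111B). The cells were grown in high-glucose medium with serum, and the methods describe lentiviral hairpin and control sequences with puromycin selection of stable lines. They list 1 hairpin sequence against FAM111B, so effects of the hairpin on other transcripts cannot be told apart from those of silencing. The labels do not say whether the libraries of a group came from separate cultures, so the p-values below measure the spread between libraries, which may be technical. The matching Hep3B libraries were not analysed here. The labels give poly(A) selection and a stranded kit, and the deposited values are TPM, reads corrected for transcript length and scaled to a common total (the listed genes summed to between 978634 and 997094 in the 6 libraries), from which the sequencing depth cannot be read.

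AP-1 is a family of dimers of basic leucine zipper proteins. JUN proteins pair with each other or with FOS proteins and bind short DNA elements, whereas FOS proteins need a JUN partner. The genes are called immediate early because serum, growth factors and stress switch on several of them within minutes, without new protein synthesis, through mitogen-activated protein (MAP) kinases acting on factors already bound at their promoters. In the liver, JUN is known for its part in regeneration and in liver tumour formation. In bulk RNA, fewer cells expressing a gene and less RNA per cell cannot be told apart.

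The promoters of these genes are shown because the members moved in one direction, with EGR1 and FOS at one end by the ratio of the group means and JUND near the other. RefSeq windows (GRCh38.p14) were found for 8 of the 10 members, all except FOSL1 and IER3. The 250 bases before the annotated start, 5′ to 3′ on the strand of the gene, are given for EGR1 (chr5:138465229-138465478, plus strand), FOS (chr14:75278578-75278827, plus strand), JUN (chr1:58784048-58784297, minus strand), JUNB (chr19:12791236-12791485, plus strand) and JUND (chr19:18281623-18281872, minus strand). Of these 5 genes only JUND has the same start in RefSeq as in the GENCODE positions given with each gene further on, and the JUN window lies inside the JUN gene as GENCODE draws it and the FOS window runs into the FOS gene. Capitals mark matches to the CArG box, to TGACGTCA (the cAMP response element, CRE), to its core TGACGT, to TATAAA or to CCAAT, on either strand.
EGR1: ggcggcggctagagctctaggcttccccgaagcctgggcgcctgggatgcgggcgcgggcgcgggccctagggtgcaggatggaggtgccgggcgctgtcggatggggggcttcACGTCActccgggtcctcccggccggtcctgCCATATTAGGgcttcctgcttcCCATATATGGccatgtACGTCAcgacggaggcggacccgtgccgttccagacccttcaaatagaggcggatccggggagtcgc
FOS: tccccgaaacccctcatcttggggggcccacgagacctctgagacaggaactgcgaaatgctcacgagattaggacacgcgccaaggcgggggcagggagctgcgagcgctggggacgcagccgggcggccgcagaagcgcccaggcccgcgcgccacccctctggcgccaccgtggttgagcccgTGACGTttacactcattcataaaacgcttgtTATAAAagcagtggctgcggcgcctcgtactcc
JUN: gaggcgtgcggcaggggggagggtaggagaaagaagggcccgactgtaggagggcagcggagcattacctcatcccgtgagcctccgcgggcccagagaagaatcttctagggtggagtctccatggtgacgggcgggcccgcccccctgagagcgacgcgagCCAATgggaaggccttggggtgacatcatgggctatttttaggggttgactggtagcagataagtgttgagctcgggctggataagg
JUNB: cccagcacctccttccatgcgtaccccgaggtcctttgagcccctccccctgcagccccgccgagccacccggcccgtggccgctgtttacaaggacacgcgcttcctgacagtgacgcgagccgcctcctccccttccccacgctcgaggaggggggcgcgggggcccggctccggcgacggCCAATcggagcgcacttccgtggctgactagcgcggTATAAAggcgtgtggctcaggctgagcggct
JUND: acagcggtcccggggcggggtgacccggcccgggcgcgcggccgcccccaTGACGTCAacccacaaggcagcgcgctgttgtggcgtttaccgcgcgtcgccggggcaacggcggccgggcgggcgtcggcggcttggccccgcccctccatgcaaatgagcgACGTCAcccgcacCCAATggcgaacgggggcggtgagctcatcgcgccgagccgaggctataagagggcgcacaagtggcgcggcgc

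The EGR1 window held 2 CArG boxes, the element bound by serum response factor, at bases -105 to -96 and -83 to -74 before the start. EGR1 was the 1 member of the 8 with such a match in its window. Bases further from the start were not searched. A window without a match, that of FOS included, therefore does not show that the gene lacks the element. Of all 35116 promoter windows searched, 1.16% held a CArG box. The CRE core TGACGT was found in EGR1, FOS, FOSL2 and JUND, against 7.1% of all windows, and the whole element TGACGTCA, which contains the core, in JUND only of the 9 member windows (ATF3 has 2), against 1.65% of all windows. A match to TATAAA lay just before the start of FOS (-33 to -28) and JUNB (-31 to -26), and also far from the start in 1 ATF3 window, against 10.7% of all windows. CCAAT was matched in JUN, JUNB, JUND and 1 ATF3 window, against 32% of all windows. The AP-1 element TGANTCA, in which N is any base, had 0 matches in the member windows, against 6.57% of all windows. Apart from TGACGTCA, forms with 1 more base in the middle were not searched, such as TGACATCA, which the JUN window holds. Such matches describe letters in these windows and say nothing of binding.

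The knockdown was seen in every library labelled shFAM111B. FAM111B had 7.84, 8.29 and 7.99 TPM in the 3 controls and 0.96, 1.13 and 0.84 TPM after silencing, a log2 fold change of -2.20 ± 0.113 (SE, limma adjusted p = 6.09e-06). All 10 liver markers looked for were detected, with AFP the most abundant at a mean of 15168 TPM, and 2 of them were called lower and 3 higher by the rule given in the next paragraph. Markers of other cell types were mostly low. The exceptions were LYZ and CD68, both on the leucocyte list, and CD68 had 15 to 17.59 TPM in control and 21.88 to 23.37 TPM in shFAM111B libraries. Of 7 fibroblast markers 4 stayed under 1 TPM in every library, and so did 4 of 5 endothelial and 2 of 6 leucocyte markers. KDR of the endothelial list and THY1 of the fibroblast list were at 0 in all libraries. PTPRC of the leucocyte list was at most 2.39 TPM, in control replicate 3. The summed leucocyte list (280.2 to 288 TPM in control and 312 to 343 in shFAM111B libraries) consisted mainly of LYZ (283 TPM), and the fibroblast list (COL1A2 the most abundant at 8.38 TPM) and the endothelial list (PECAM1, 2.28 TPM) summed to at most 21 and 3.49 TPM in any library. Of the tested genes of these lists 1 of 3, 0 of 1 and 0 of 3 were called higher for fibroblasts, endothelium and leucocytes, and 0 lower, against 6.82% of all tested genes called higher. The fibroblast count was 3 of 3 with library medians subtracted and with the trend described below for transcript length removed, 2 of 3 under quantile normalization and 1 of 3 under the other scalings, and the endothelial count was 1 of 1 with that trend removed. The part of other cells in the results below was not tested.

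The libraries differed between the groups in composition. Genes of the mitochondrial chromosome held 196140 to 201464 TPM in control and 73237 to 78883 TPM in shFAM111B libraries, and 8 of its 13 protein genes were called lower and 0 higher, against 23.7% of all tested genes called lower. That count was 4 under median-of-ratios and upper-quartile scaling and with library medians subtracted, against 12.5%, 13.3% and 9.07% of all tested genes. It was 7 under quantile normalization, against 12.8%, and 8 with scaling on nuclear protein-coding genes, against 29.2%. With the trend described below for transcript length removed it was also 8, against 9.19%. Short non-coding RNA genes held 1653 to 4840 TPM in the controls but 46863, 69045 and 5107 TPM in shFAM111B replicates 1, 2 and 3, so that replicates 1 and 2 stood apart. Whether either difference bears on the members was not tested, other than by the scalings and the omission of these replicates given below. The median of the 14394 tested genes was -0.36 on the log2 scale, and each fold change below has to be read against that value. Genes were tested when at least 3 libraries had at least 1 TPM. Fold changes are on the log2(TPM + 1) scale, which compresses the change of genes at low levels, and calling a gene lower or higher took a 2-fold difference together with an unadjusted P under 0.05 in limma. Values for single libraries are given in the order of replicates 1, 2 and 3.

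All 10 members passed the filter on low values, and in all 10 every shFAM111B library lay below every control library, as in 52.8% of all tested genes. EGR1, JUN, ATF3, FOS, JUNB and FOSL2 were called lower, that is 6 of 10, against 23.7% of all tested genes called lower, and 0 were called higher, against 6.82%. FOS passed the filter only through its control libraries and so had to differ, which leaves 5 of 9 without it. At an adjusted p under 0.05 with no limit on the fold, all 10 were lower, against 50.9% of all tested genes. That count was 7 under median-of-ratios and upper-quartile scaling, 9 under quantile normalization and 6 with library medians subtracted. It was 10 with scaling on nuclear protein-coding genes and 8 with the trend described below for transcript length removed. The share of all tested genes at this limit was not counted under these treatments, so these counts cannot be read against it. The median member had a log2 fold change of -1.39, which is -1.03 relative to the median tested gene.

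**Figure D1:**
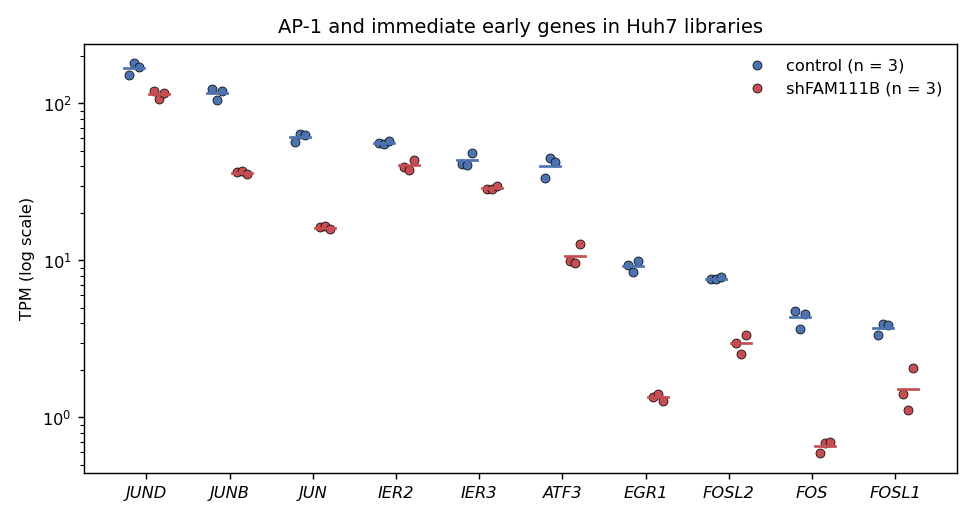
TPM of the 10 genes (log axis) in the 3 control (blue) and 3 shFAM111B (red) Huh7 libraries, ordered by the control mean, with points for libraries and lines for group means. For every gene the red points lie below the blue ones, with wide gaps for JUNB, JUN, ATF3, EGR1 and FOS and narrow ones for JUND, IER2 and IER3.

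The JUN family provides the partner that every FOS protein needs. JUN (ENSG00000177606, chromosome 1 from 58780788 to 58784327, GRCh38) encodes c-Jun, the family member most directly activated by JUN N-terminal kinases. Its level was 56.76, 63.64 and 63.05 TPM in the 3 controls and 16.27, 16.55 and 15.76 TPM after silencing. The shFAM111B libraries lay close together with a mean at 26.5% of that of the controls. JUN fell from 61.1 ± 3.81 to 16.2 ± 0.401 TPM (SD, n = 3), and its log2 fold change was -1.85 ± 0.0662 (SE, limma adjusted p = 2.63e-06).

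JUNB (ENSG00000171223, chromosome 19 from 12791496 to 12793315) encodes a JUN protein often described as a weaker activator that can restrain c-Jun. The gene had 123.06, 105.64 and 120.04 TPM in the 3 controls against 36.36, 36.88 and 35.47 TPM after silencing. Its log2 fold change was -1.65 ± 0.0683 (SE, limma adjusted p = 3.37e-06), with means of 116 ± 9.31 and 36.2 ± 0.713 TPM (SD, n = 3). JUNB overlaps HOOK2 on the opposite strand, which had means of 9.93 and 7.23 TPM, and the strand setting of the counting is not given in the sources used here.

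JUND (ENSG00000130522, chromosome 19 from 18279760 to 18281622) is the broadly expressed JUN gene that responds least to serum, and it was the most abundant member in both groups. It had 152.22, 179.59 and 170.78 TPM in the 3 controls and 119.17, 106.11 and 116.97 TPM after silencing. The groups did not overlap, but the difference was small. The log2 fold change was -0.55 (95% interval -0.73 to -0.37, limma adjusted p = 0.000517), only -0.19 relative to the median tested gene, and JUND was not called.

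The make-up of the JUN family differed between the groups, a comparison within each library that no scaling factor changes. Removal of the trend described below for transcript length does change it. The log2 fold changes of JUN, JUNB and JUND were then -1.32, -1.67 and -0.63, against -1.85, -1.65 and -0.55 with the TPM as deposited. JUND made up 45.8%, 51.5% and 48.3% of the summed JUN, JUNB and JUND TPM in the 3 controls, and 69.4%, 66.5% and 69.5% in shFAM111B replicates 1 to 3. The share of JUNB went from 33.8% ± 3.39 to 21.8% ± 1.15 (SD, n = 3) and that of JUN from 17.7% ± 0.58 to 9.74% ± 0.553 (SD, n = 3). For each of these shares the groups did not overlap, and the two-sided exact permutation test gave p = 0.1, the smallest it can give with 3 libraries against 3. The log2 ratio of JUN to JUND changed by -1.36 and that of JUNB to JUND by -1.13 (exact permutation p = 0.1 each). The summed JUN family TPM was 345 ± 11.4 in control and 167 ± 6.3 in shFAM111B libraries (SD, n = 3).

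The FOS family, whose proteins bind DNA only as partners of JUN proteins, was expressed at far lower levels. FOS (ENSG00000170345, chromosome 14 from 75278774 to 75282230), the classic immediate early gene, had 4.75, 3.67 and 4.57 TPM in the 3 controls and 0.59, 0.69 and 0.70 TPM after silencing. All shFAM111B libraries were thus under 1 TPM. The control mean was 6.56 times the shFAM111B mean, and the log2 fold change was -1.68 ± 0.136 (SE, limma adjusted p = 3.49e-05), or -2.54 with a pseudocount of 0.1.

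FOSL1 (ENSG00000175592, chromosome 11 from 65892049 to 65900573) encodes Fra-1 and FOSL2 (ENSG00000075426, chromosome 2 from 28392448 to 28417312) encodes Fra-2, FOS relatives that lack its strong activation domain and are induced later. FOSL1 had 3.37, 3.95 and 3.89 TPM in the 3 controls and 1.41, 1.11 and 2.05 TPM after silencing. Its log2 fold change of -0.92 (95% interval -1.32 to -0.53, limma adjusted p = 0.0019) was not called, but without shFAM111B replicate 3, its highest shFAM111B library, it was -1.07 and called. FOSL2 had 7.62, 7.59 and 7.80 TPM in the 3 controls and 3, 2.55 and 3.35 TPM after silencing. The gene was called lower at a log2 fold change of -1.13 ± 0.113 (SE, limma adjusted p = 9.34e-05). Of the 6 calls it was the 1 lost under other scalings. FOSL2 has the longest transcript of the members (6708 nt), and its log2 fold change was -0.23 (adjusted p = 0.103) once the trend of fold changes with transcript length and expression was removed.

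Among FOS, FOSL1 and FOSL2, the share of FOS in their summed TPM went from 27.5% ± 3.07 to 13% ± 2.44 (SD, n = 3) and that of FOSL2 from 48.8% ± 1.01 to 57.8% ± 2.63, with no overlap (exact permutation p = 0.1 each, the smallest possible). The share of FOSL1, 23.8% ± 2.28 in control and 29.1% ± 4.12 in shFAM111B libraries, overlapped between the groups (exact permutation p = 0.2, n = 3 each). These shares leave out FOSB, the fourth FOS gene, which is not among the 10. With FOSB included, an alternative chosen after the data were seen, the share of FOSL1 was 17.3% ± 1.49 in control and 26% ± 4.52 in shFAM111B libraries with no overlap (exact permutation p = 0.1, n = 3 each), that of FOS 20% ± 2.42 and 11.6% ± 2.07, and that of FOSL2 35.5% ± 0.746 and 51.4% ± 0.562. The summed TPM was 15.7 ± 0.525 in control and 5.15 ± 0.885 in shFAM111B libraries without FOSB, and 21.6 ± 0.782 and 5.78 ± 0.83 with it (SD, n = 3). The JUN family sum was 21.9 ± 0.932 times that of FOS, FOSL1 and FOSL2 in control and 32.9 ± 4.73 times in shFAM111B libraries, and 15.9 ± 0.55 and 29.2 ± 3.44 times with FOSB (SD, n = 3). The groups did not overlap in either case (exact permutation p = 0.1, n = 3 each).

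**Figure D2:**
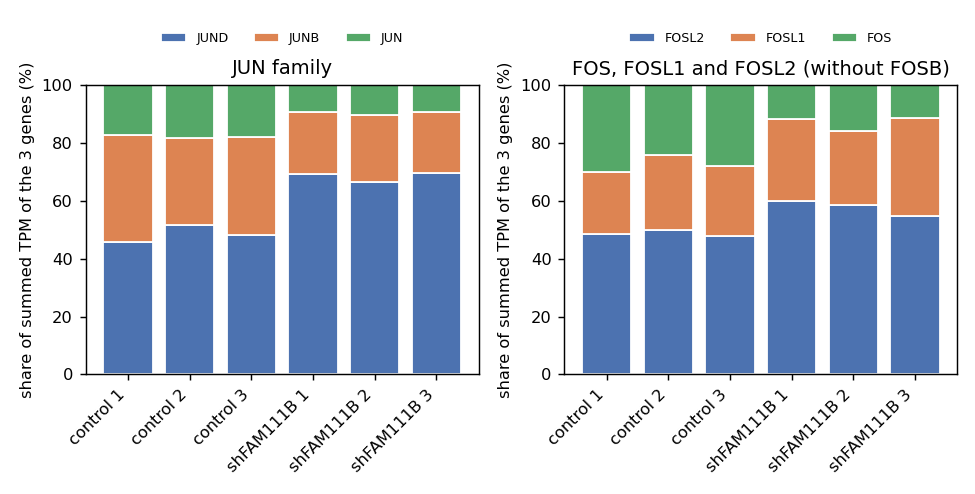
Share of each gene in the summed TPM (%) of JUN, JUNB and JUND (left) and of FOS, FOSL1 and FOSL2 without FOSB (right), with 1 bar per Huh7 library. JUND makes up 45.8% to 51.5% of the JUN family in control and 66.5% to 69.5% in shFAM111B libraries, and FOS 24.1% to 30.2% and 11.5% to 15.9% of the 3 genes on the right.

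ATF3 (ENSG00000162772, chromosome 1 from 212565334 to 212620777) encodes a stress-induced basic leucine zipper protein that dimerizes with JUN proteins and often represses. ATF3 had 33.45, 44.75 and 42.25 TPM in the 3 controls and 9.98, 9.58 and 12.68 TPM after silencing. The highest shFAM111B library was well below the lowest control. ATF3 went from 40.1 ± 5.94 to 10.7 ± 1.69 TPM (SD, n = 3), and its log2 fold change was -1.81 ± 0.142 (SE, limma adjusted p = 3.08e-05).

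EGR1 (ENSG00000120738, chromosome 5 from 138465490 to 138469315) encodes a zinc finger factor outside AP-1, which is induced together with FOS by serum response factor. It had 9.33, 8.47 and 9.90 TPM in the 3 controls and 1.35, 1.41 and 1.27 TPM after silencing. Of the 10 members it had the largest log2 fold change with the TPM as deposited, -2.12 ± 0.109 (SE, limma adjusted p = 5.96e-06). The ratio of the group means was 6.87, and only 2.12% of tested genes ranked lower.

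IER2 (ENSG00000160888, chromosome 19 from 13150415 to 13154908) and IER3 (ENSG00000137331, chromosome 6 from 30743199 to 30744554) are early response genes outside the leucine zipper family. IER3 is known as a regulator of cell survival. IER2 had 55.60, 55.42 and 57.68 TPM in the 3 controls and 39.45, 37.73 and 43.75 TPM after silencing. IER3 had 41.27, 40.52 and 48.32 TPM against 28.32, 28.66 and 29.92 TPM in the same order. For both, the groups were apart but near to each other, and neither gene was called. The log2 fold changes were -0.47 (95% interval -0.63 to -0.31, adjusted p = 0.000573) for IER2 and -0.56 (95% interval -0.75 to -0.37, adjusted p = 0.000567) for IER3, both from limma's moderated test and only -0.11 and -0.20 relative to the median tested gene. On the opposite strand, IER3 overlaps IER3-AS1 (means of 0.96 and 1.88 TPM) and IER2 overlaps an antisense gene at no more than 0.7 TPM on average. Against JUND within each library, IER2 and IER3 differed by 0.0699 and -0.0254 on the log2 scale between the groups (exact permutation p = 0.5 and 0.8, n = 3 each).

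In TPM, which are scaled by gene length, the order of the members in control libraries was JUND, JUNB, JUN, IER2, IER3, ATF3, EGR1, FOSL2, FOS and FOSL1. Libraries of neighbours in this order overlapped for JUN and IER2, for IER3 and ATF3, and for FOS and FOSL1. In shFAM111B libraries the order was JUND, IER2, JUNB, IER3, JUN, ATF3, FOSL2, FOSL1, EGR1 and FOS, and the libraries of neighbours overlapped for FOSL1 and EGR1 only. IER2 and IER3, which lay below JUN in the controls by their means, thus lay above it with no overlap in shFAM111B cells, and EGR1 went from above both FOSL2 and FOSL1 to below FOSL2.

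The size of the fall, but not its direction for 9 of the 10 genes, depended on how the libraries were scaled. Under median-of-ratios scaling the median tested gene moved to 0.03, with 2031 genes higher and 1799 lower in place of 981 and 3409, so that 12.5% of tested genes were called lower and 14.1% higher. The shares were 13.3% lower and 13.2% higher under upper-quartile scaling (1910 and 1899 genes), 12.8% and 11.8% under quantile normalization (1849 and 1694 genes), and 9.07% and 18% with the median of each library subtracted (1305 and 2597 genes). Under each of these 4 scalings the members called lower were ATF3, EGR1, FOS, JUN and JUNB, 5 of 10. Scaling on nuclear protein-coding genes alone gave 7 of 10, FOSL1 and FOSL2 included, against 29.2% of tested genes, and 0 higher, against 6.07%. JUND, IER2 and IER3 lay between -0.20 and 0.06 under the 4 scalings, apart from JUND at -0.60 under quantile normalization, and IER2 turned to 0.06 with library medians subtracted. Under median-of-ratios and upper-quartile scaling and with library medians subtracted, the limma adjusted p of each of these 3 genes was at least 0.103. Without shFAM111B replicates 1 and 2, an alternative chosen after their short non-coding RNA had been seen, the same 5 genes were called lower, against 25.2% of tested genes, with FOSL2 at -0.99. The single shFAM111B library left in that fit was assumed to vary like the controls.

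**Figure D3:**
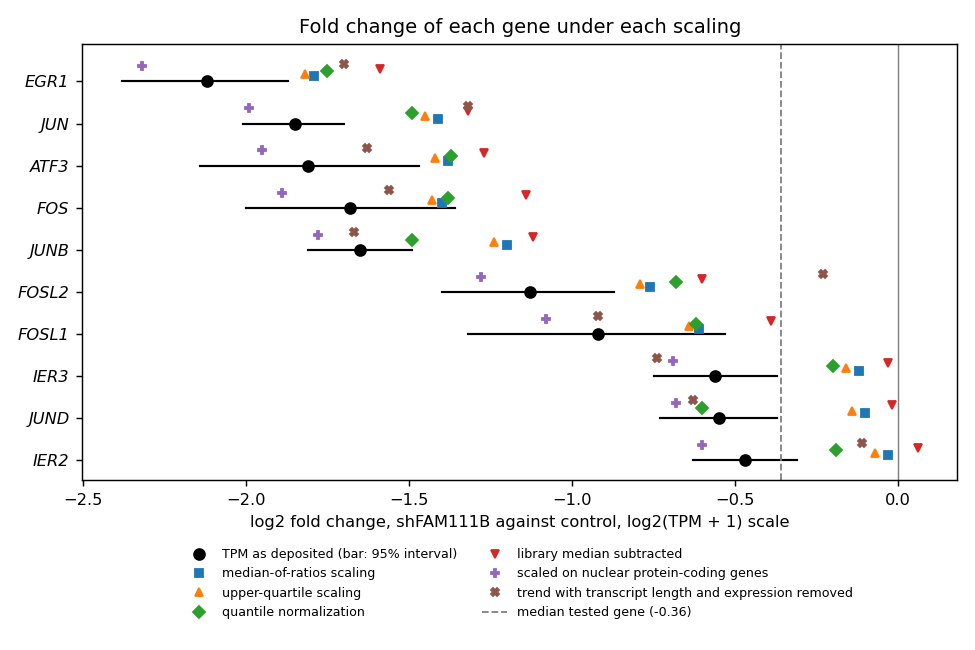
Log2 fold change (log2(TPM + 1) scale, shFAM111B against control) of each gene with the TPM as deposited (black, bar for the 95% interval) and under 6 other treatments of the values (coloured marks), with a dashed line at the median tested gene, -0.36. EGR1, JUN, ATF3, FOS and JUNB stay at or below -1.12 in every case, while IER2, IER3 and JUND come near 0 in some.

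The fold changes of all genes followed transcript length, and the members were compared with genes of like length. The longest annotated transcripts (GENCODE v29) of IER3, FOSL1, JUNB and JUND have 1350, 1669, 1820 and 1863 nt, the class above 1000 and up to 2000 nt, in which the median tested gene was at 0.17 and 6.89% were called lower. ATF3, FOS, IER2, EGR1 and JUN have 2103 to 3540 nt, where the median was -0.31 and 18.7% were called lower. FOSL2, at 6708 nt, lies in the class above 4000 and up to 8000 nt, where the median was -0.78 and 37.9% were called lower. Every member had a log2 fold change below the median of its class. With the trend on length and expression removed, ATF3, EGR1, FOS, JUN and JUNB were still called lower, against 9.19% of the tested genes with a length. Their log2 fold changes were -1.63, -1.70, -1.56, -1.32 and -1.67. FOSL1, JUND and IER3 were not called, at -0.92, -0.63 and -0.74 (limma adjusted p = 0.00257, 0.000319 and 0.000204). FOSL2 and IER2 were at -0.23 and -0.11 (limma adjusted p = 0.103 and 0.182).

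Other basic leucine zipper genes that pair with JUN proteins or compete for their sites moved in both directions. Of 9 tested AP-1 partners, 4 were called lower and 2 higher, against 23.7% and 6.82% of all tested genes. FOSB, the FOS relative not among the 10, had 5.61, 5.84 and 6.27 TPM in control and 0.79, 0.59 and 0.50 TPM after silencing, a log2 fold change of -2.09 ± 0.127 (SE). Like FOS, it passed the filter only through its control libraries and so had to differ, which leaves 3 of 8 partners called lower without it, beside the same 23.7%. The small MAF genes MAFF and MAFK fell by 2.13 and 1.90 on the log2 scale, and ATF2, a JUN partner activated by stress kinases, had a log2 fold change of -1.1. ATF2 lost its call under the other scalings except that on nuclear protein-coding genes. The genes that rose were BATF and BATF3, partners of JUN named here after their values were seen. BATF had 2.22, 1.32 and 2.12 TPM in control and 7.17, 6.38 and 6.13 TPM in shFAM111B libraries (log2 fold change 1.40, limma adjusted p = 0.000175), and BATF3 went from at most 2.41 to at least 5.03 TPM. The list median was -0.67, which is -0.31 relative to the median tested gene, and it turned to 0.18 once the trend with transcript length and expression was removed.

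A broader list of 39 early response genes moved mostly downwards. Of 31 tested, 22 were called lower and 1 higher, with 8 in neither, against 23.7% and 6.82% of all tested genes. The list median was -1.31, which is -0.95 relative to the median tested gene. Under the 4 other scalings named above 13 to 16 were called lower, against 9.07% to 13.3% of all tested genes. The genes with the smallest p were KLF6, a zinc finger factor, RHOB, a short-lived small GTPase, DUSP1, the phosphatase that switches off JNK and p38, and BTG2, an antiproliferative gene. KLF6 went from 57.92, 55.93 and 53.51 to 4.91, 5.30 and 4.93 TPM in replicates 1 to 3, a log2 fold change of -3.23 (limma adjusted p = 1.20e-06), which is larger than that of any member. RHOB, DUSP1 and BTG2 had log2 fold changes of -2.90, -2.27 and -2.47. The 1 higher gene was IER5L, named after its value was seen, at 1.52.

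Factors and kinases upstream of these genes were counted in the same way. Of 9 transcription factors and co-activators, 7 were called lower and 0 higher, where 23.7% of all tested genes were lower. EP300, the histone acetyltransferase that works with AP-1, had 17.47, 17.43 and 22.06 TPM in control and 1.09, 1.27 and 0.88 TPM after silencing, a log2 fold change of -3.26 (limma adjusted p = 3.39e-06). Its relative CREBBP fell too (log2 fold change -1.77), as did the SRF partners MRTFA (-1.11) and ELK3 (-1.47). SRF itself (-0.84) and ELK1 (-0.79), added to the named genes after their values were seen, were not called. The list held 1 called gene of 9 when the trend with transcript length and expression was removed, against 9.19% of tested genes, and 2 to 3 under the 4 other scalings, against 9.07% to 13.3%. Of 17 tested kinases of the ERK, JNK and p38 routes 6 were called lower and 1 higher, against 23.7% and 6.82% of all tested genes. RPS6KA3, a kinase that ERK activates, and the JNK activator MAP2K4 had log2 fold changes of -2.19 and -1.41, and MAP2K5, the kinase above ERK5, rose by 1.22. The kinases called lower numbered 2 to 3 of 17 under the 4 other scalings, where 9.07% to 13.3% of all tested genes were called lower.

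Genes that AP-1 is known to activate did not share a direction. Of 14 tested targets 4 were called lower and 3 higher, against 23.7% and 6.82% of all tested genes, and the list median of -0.65 was -0.29 relative to the median tested gene. EZR, VEGFA and ITGA2 had log2 fold changes of -1.27, -1.27 and -1.14, and none of these 3 was called in each scaling tried. TIMP1, a metalloproteinase inhibitor, rose from 2.44, 3.85 and 3.17 to 19.31, 17.67 and 22.50 TPM, a log2 fold change of 2.33 (limma adjusted p = 1.45e-05). Under the 4 other scalings 1 to 2 of the 14 targets were called lower and 2 to 4 higher, against 9.07% to 13.3% and 11.8% to 18% of all tested genes. The other higher genes were PLAU (1.33) and GSTP1 (1.06), and ITGA2, PLAU and GSTP1 were named after their values were seen.

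Early response mRNAs are short-lived because AU-rich elements attract decay factors, and AP-1 proteins are removed by ubiquitin ligases. Of 6 genes for proteins that bind AU-rich elements 3 were called lower, KHSRP (-1.54), ZFP36L1 (-1.96) and ZFP36L2 (-1.40), and 0 higher, beside 23.7% of all tested genes called lower. Under the 4 other scalings 2 to 3 of the 6 were lower, beside 9.07% to 13.3%. Of 8 genes of AP-1 protein turnover, ITCH, CUL4A, USP28 and FBXW7 were called lower (-1.81, -1.49, -1.67 and -1.46) and 0 higher, beside the same 23.7%, and 2 to 4 were lower under the 4 other scalings. After correction for the trend with length and expression none of these 4 was called and 1 gene was called higher, against 9.57% of tested genes. It was GSK3B, a kinase that marks JUN for removal, named after its value was seen, which had 24.59, 21.70 and 16.35 TPM in control and 29.76, 15.60 and 26.87 TPM in shFAM111B libraries. Its groups overlapped, and its log2 fold change was 0.17 with the TPM as deposited (limma adjusted p = 0.575) and 1.08 with the trend removed. Of 5 heat shock genes looked at as a sign of handling stress, 0 were called with the TPM as deposited, but the list median was 0.38, which is 0.74 relative to the median tested gene. HSPH1, HSPA8 and HSPA1B, named after their values were seen, were higher in every shFAM111B library than in any control (log2 fold changes of 0.78, 0.38 and 0.56), although HSPA1B has a near-identical copy, HSPA1A (-0.04), with which reads may be shared. Over the scalings and with the trend removed, HSPA8 ranged from -0.09 to 0.92 and so did not keep its direction. HSPH1 (0.65 to 1.40) and HSPA1B (0.44 to 1.09) kept theirs. Under the 4 other scalings 1 to 2 of the 5 were called higher, against 11.8% to 18% of all tested genes. The part of stress in the members' values was not tested.

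**Figure D4:**
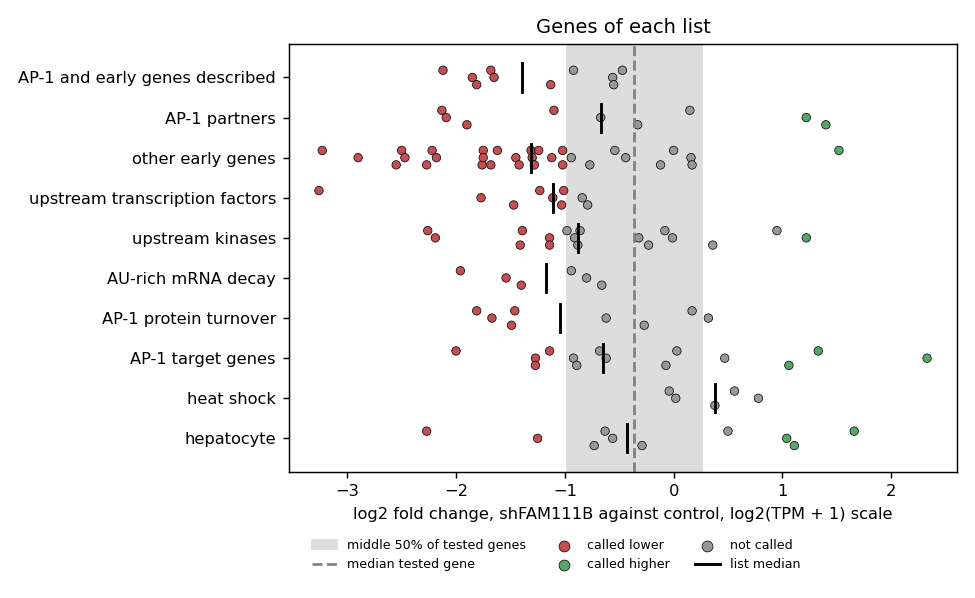
Log2 fold change (log2(TPM + 1) scale) of each tested gene in 10 lists, with red for genes called lower, green for called higher, grey for not called, a black bar for the list median, and shading for the middle 50% of all tested genes. The medians of the 10 described genes (-1.39) and of the other early genes (-1.31), the AU-rich decay genes (-1.17), the upstream transcription factors (-1.11) and the protein turnover genes (-1.04) lie to the left of the shading, which starts at -0.98, and those of the AP-1 targets (-0.65) and partners (-0.67) within it.

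By the pattern of centred log2(TPM + 1) over the 6 libraries, the genes most like JUND among 6948 protein-coding genes with at least 10 TPM were VAMP2, UBALD1, STRADA and DHX34 (root mean square difference 0.04 to 0.0532). Those most like EGR1 were BMP2, SLC25A24, ARID1A and CCNT2 (0.0521 to 0.0569). BMP2, for example, went from a mean of 131 to 29.6 TPM.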

How the data were processed

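Libraries were from 3 control and 3 shFAM111B Huh7 samples, grouped by their titles. The authors deposited 1 table of TPM per library, with group means and their own fold changes and p-values, which were not used. The submitters' processing notes name RSEM, DESeq2 and hg38. The aligner and the annotation release are not given in the sources used here. TPM keep no depth, so no count test was run and no counting error can be given, and a rise of abundant RNAs lowers all other values.

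Of 60666 genes, 14394 reached 1 TPM in 3 or more libraries and were compared on log2(TPM + 1) with limma 3.58.1 (lmFit, eBayes with a trend, no covariate) in R 4.3.3, with Benjamini-Hochberg adjustment over all tested genes. The fit was tested on simulated data. Values of single families were compared with two-sided exact permutation tests. GENCODE v29 (GRCh38) held 96.3% of the identifiers and gave positions and longest transcripts, and RefSeq gave promoters. Promoter windows with the same gene and position were counted once, and 250 bases before each start were searched on both strands. The number of columns of per-sample values left unused was 0. Figures were drawn with matplotlib 3.10.9 under Python 3.11.15.

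The members and gene lists were chosen with earlier results of these data known. Named genes were FAM111B, the 10 members, of each other list up to 4 called genes with the smallest p, and for the most abundant and the most changed member the 4 protein-coding genes (mean of at least 10 TPM, outside the lists) nearest in pattern. Some genes that met this rule are not reported here. Of the liver list APOB, AFP, HNF4A and TTR (log2 fold changes -2.27, 1.66, -1.25 and 1.04), of the fibroblast list LUM (1.01) and of the mitochondrial DNA list MT-ND4L, MT-ND5, MT-CYB and MT-CO1 (-4.74, -2.79, -1.21 and -1.20) met this rule, and MT-ND4L overlaps a neighbouring gene. The lists of liver, fibroblast, endothelial, leucocyte, heat shock and mitochondrial DNA genes served as checks on the libraries. Alternatives were another pseudocount, filters, scalings, removal of a loess trend (span 0.75) with length and expression, limma without a trend, the replicate number as a block and leaving out libraries.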

Additional observations from a re-analysis of the deposited data

How the results depend on the processing

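Neither depth nor counting error can be read from TPM, which limits what can be said of genes near 1 TPM such as FOS and FAM111B in shFAM111B libraries. With at least 1 TPM in every library these 2 genes have no value, and 634 genes were called higher. Over all tested genes, 2031, 1899, 1694 and 2597 were called higher and 1799, 1910, 1849 and 1305 lower under median-of-ratios, upper-quartile and quantile scaling and with library medians subtracted, and 1309 were called lower with the length and expression trend removed. Each library left out in turn gave 918 to 1087 genes higher and 3362 to 3554 lower, 6 to 7 members lower and 0 higher, and -2.25 to -2.15 for FAM111B.

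Over all alternatives, 5 to 7 members were called lower and 0 higher. JUN, JUNB, ATF3, EGR1 and FOS kept their direction and call in each alternative that gave a value, with log2 fold changes from -1.99 to -1.32, -1.78 to -1.12, -1.95 to -1.27, -2.69 to -1.59 and -2.54 to -1.14, and the largest adjusted p from limma among them was 0.00315, for ATF3 without shFAM111B replicates 1 and 2. FOSL1 ranged from -1.28 to -0.39 and was also called with a pseudocount of 0.1 (-1.28), scaled on nuclear protein-coding genes (-1.08) and without shFAM111B replicate 3 (-1.07). FOSL2 was not called in 6 alternatives and reached -0.23. IER2 was at 0.06 with library medians subtracted, the opposite direction. The cause of these changes was not tested. With the replicate number as a block, 996 genes were called higher and 3410 lower, and the 6 members called lower kept their count. Deviations of same-numbered libraries from their group means correlated at 0.054, 0.0349 and 0.0908 across genes, so the numbers were not taken as a pairing.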

Other observations

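Some early response genes were too low to test, and they are named here after their values were seen. EGR2, a relative of EGR1, had 0.40, 0.25 and 0.33 TPM in the 3 controls and 0.06, 0.13 and 0.04 TPM after silencing. NR4A3, an orphan nuclear receptor, had 0.45, 0.39 and 0.55 TPM and 0.15, 0.11 and 0.17 TPM in the same order. In both, every shFAM111B library lay below every control library, as in 52.8% of all tested genes. EGR3 was listed at 0.14, 0.05 and 0.08 TPM in control and at 0 in all shFAM111B libraries, and EGR4 and ARC were listed at 0 throughout. DUSP2, a phosphatase of MAP kinases, went the other way, with 0.05, 0 and 0.05 TPM in control and 0.07, 0.36 and 0.16 TPM in shFAM111B libraries. PTGS2, the inducible cyclooxygenase, had 0.05, 0.05 and 0.09 TPM and 0.03, 0 and 0 TPM in the same order. The remaining untested gene of the list has a near-identical copy and is not given. Two-sided exact permutation tests could not go below p = 0.1 for any of these genes.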
